A study of Homo sapiens with 6 samples.

Results

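The aminoacyl-tRNA synthetases are the enzymes that load each tRNA with its amino acid. Of the 57905 gene identifiers counted in each library, 35 belong to the synthetase genes described here. They were taken from a list of names that was chosen with earlier results of these data known. The list holds 17 genes of cytosolic synthetases, 16 of mitochondrial ones, and GARS1 and KARS1, whose single genes make both forms. All 35 were found by their Ensembl identifiers, and all 35 were among the 14398 genes that passed the filter on low counts. The RNA came from NCI-H929 (H929), a human multiple myeloma cell line, and the submitters call the 6 samples biological replicates. Every tube held 5 μg of total RNA in a buffer with ATP, stayed at 37 °C for 1 h and was then heated to 95 °C for 5 min. The 3 IRE1-treated samples also received 2 μg of a recombinant fragment of human IRE1 (amino acids 467 to 977), and the 3 control samples received no enzyme. Libraries were then made from the poly(A)-containing RNA. Since the RNA was purified before the enzyme was added, no living cell responded to IRE1, no RNA was synthesised in the tube, and each value is relative to the other RNAs of its library, after TMM scaling, which takes most genes as unchanged.

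In the cytosol, the charged tRNAs feed the ribosomes that translate nuclear-coded mRNAs, and some of the cytosolic synthetases are held together in the multi-tRNA synthetase complex by the scaffold proteins AIMP1, AIMP2 and EEF1E1. The mitochondrial synthetases are coded in the nucleus, imported, and serve the few proteins made from mitochondrial DNA. All synthetases fall into 2 structural classes, I and II, that share no common fold. Plasma cells, from which myeloma arises, secrete large amounts of antibody, and in living cells several cytosolic synthetase genes are known targets of ATF4 during endoplasmic reticulum stress. IRE1 is a sensor of that stress whose RNase domain cleaves XBP1 mRNA within hairpin loops that hold a CNGCAG-like sequence, cutting after the G at position 3, and cleaves other mRNAs in what is called regulated IRE1-dependent decay.

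The letters CUGCAG, and the looser CNGCAG in which N is any base (CUGCAG is one of its forms), were searched on the sense strand of the longest protein-coding transcript of each gene. A site was counted as a hairpin where the fold of the site with 15 bases on either side put the G at position 3 in a loop with a size between 5 and 11 bases and a closing stem of 3 or more pairs. CUGCAG occurred in 33 of the 35 synthetase transcripts (94.3%) against 86.7% of 12207 tested protein-coding genes, and CNGCAG in 35 of 35 against 97.4%. A CNGCAG hairpin occurred in 21 of 35 (60%), against 61.8% of all and 65.1% of the 9961 genes whose transcripts lay within the length range of the synthetases. A CUGCAG hairpin occurred in 10 of 35 (28.6%) against 36.9% and 38.8%. The median transcript length was 2762 bases for the synthetases, 3578 for all and 3856 for the genes within the length range. The shares are therefore not matched for length. In XBP1 the search found CUGCAG in a loop of 7 bases (G at base 592) and CCGCAG in a loop of 6. It also counted a CAGCAG in a loop of 7 (G at base 595), which overlaps the CUGCAG and is not a separate site. A loop of 7 bases therefore does not cover every XBP1 site that the search found. The synthetases held no CUGCAG in a loop of 7 bases (0 of 35, against 7.5% of all tested protein-coding genes). A CNGCAG in a loop of 7 bases was held by 3 of 35 (8.57% against 16.5%). Those 3 are printed here after XBP1, followed by 3 examples of CUGCAG in a loop of another size, chosen after the sites were seen. Each has 9 bases on either side, with the motif in capitals. Only the G at position 3 had to lie in the loop, so other bases of a motif can be paired in the stem. The LARS2 site lies at base 5087 of a transcript of 10049 bases, while the canonical LARS2 transcript has 4781 bases. A site on a transcript is a match of letters in a predicted fold, and whether IRE1 cut there was not measured.
XBP1, coding sequence in exon 4 of 5, chr22:29192103-29192126 (GRCh37, minus strand), loop of 7: cgugcaccuCUGCAGcaggugcag
WARS1, 3′ UTR in exon 11 of 11, chr14:100800397-100800420 (minus strand), loop of 7: uccuggccuCCGCAGaugcuucau
FARSB, coding sequence in exon 3 of 17, chr2:223507664-223507687 (minus strand), loop of 7: auguaaaggCAGCAGgagccucug
LARS2, 3′ UTR in exon 21 of 21, chr3:45591245-45591268 (plus strand), loop of 7: aacuggacuCAGCAGguucacaau
RARS2, coding sequence in exon 15 of 20, chr6:88228565-88228588 (minus strand), loop of 8: cacaagagaCUGCAGagagggucg
FARSA, coding sequence in exon 9 of 14, chr19:13035960-13035983 (minus strand), loop of 6: gcggaggccCUGCAGcucccaaug
CARS1, coding sequence in exon 19 of 23, chr11:3028164-3028187 (minus strand), loop of 9: ccugagauuCUGCAGcucagcgau

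The depth on genes was 21144515 to 25678499 counts in the controls and 19615715 to 23041598 in the IRE1-treated libraries. The synthetase genes had 67 to 17722 raw counts per library. IRE1-treated replicate 1 stood apart from the other treated libraries. Of the 3 treated libraries it lay farthest from the control mean for 24 of the 35 synthetase genes (68.6%) and for 54.5% of all tested genes, so values that move most without it are given both ways. The 7 plasma cell markers SDC1, TNFRSF17, IRF4, PRDM1, XBP1, MZB1 and JCHAIN all lay at 363 CPM (counts per library size times TMM factor) or more in every library. MS4A1 of mature B cells, CD3D and CD8A of T cells, CD14 of monocytes, and COL1A2 and DCN of fibroblasts were at or near 0, while CD3E (40.4 to 53.0 CPM) and KRT18 (49.7 to 64.1 CPM) were present. BLOC1S1, a known IRE1 substrate, checks the labels. It had 606, 582 and 649 normalized counts in controls 1 to 3 and 275, 230 and 211 in the treated libraries, a log2 fold change of -1.37 (SE 0.0950, adjusted p = 1.25e-06, edgeR). XBP1 had 60995, 58415 and 59795 against 57255, 56745 and 54060 (-0.09, adjusted p = 0.143). Its groups did not overlap, but it did not pass the test in this fit. It passed in 5 of 16 alternatives, among them without treated replicate 1 (-0.11, adjusted p = 0.0277, edgeR) and with the canonical length and GC trend removed (-0.20, adjusted p = 0.000952), and was negative in all 16. A gene count sums what lies before and after a cleavage site. ERN1, the gene of IRE1 itself, was at -0.28 (adjusted p = 0.00117), and at -0.09 (adjusted p = 0.119) with the trend of transcript length and GC content removed. The same limit holds for every synthetase: a cut that removes only a short 5′ part can leave its gene count nearly as it was.

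The level of the synthetase mRNAs in the control libraries spanned a wide range, with the cytosolic members far above the mitochondrial ones. Levels between genes were compared only per length, as TPM (abundance scaled to exon length and library size) computed from the gene counts and the length of all annotated exons of the gene. The median was 178 TPM over the 17 cytosolic genes and 16.8 TPM over the 16 mitochondrial genes, beside 11 TPM over all tested genes. FARSA, the alpha subunit of the cytosolic phenylalanyl-tRNA synthetase, had the highest level (446 TPM, controls between 439 and 450). It was followed by NARS1 for asparagine (327 TPM), VARS1 for valine (286), SARS1 for serine (252), WARS1 for tryptophan (218) and EPRS1, the fused enzyme for glutamate and proline (215). TARS1 for threonine (206), QARS1 for glutamine (179), AARS1 for alanine (178), MARS1 for methionine (164) and YARS1 for tyrosine (134) came next. GARS1 for glycine (131 TPM) and KARS1 for lysine (124), the genes that serve both compartments, lay within the cytosolic range. The lower cytosolic levels were those of RARS1 for arginine (63.4 TPM), FARSB, the beta subunit for phenylalanine (59.5), IARS1 for isoleucine (53.6), CARS1 for cysteine (50.6), LARS1 for leucine (31.6) and HARS1 for histidine (26.8). Of the 34 neighbouring pairs in this order, 12 had control libraries that overlapped and are not separated by these data.

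Among the mitochondrial members TARS2 stood highest at 131 TPM, and 12 cytosolic or dual members lay above it. IARS2 (56.6 TPM), HARS2 (34.1), YARS2 (25.1), MARS2 (20.6) and VARS2 (19.9) followed. EARS2, AARS2 and PARS2 lay at 18.6, 17.8 and 15.8 TPM, and FARS2, CARS2, LARS2, SARS2, WARS2 and RARS2 between 8.99 and 3.23 TPM. NARS2 was lowest at 1.93 TPM. In all, 13 of the 16 mitochondrial genes lay below HARS1, the lowest cytosolic gene.

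**Figure D1:**
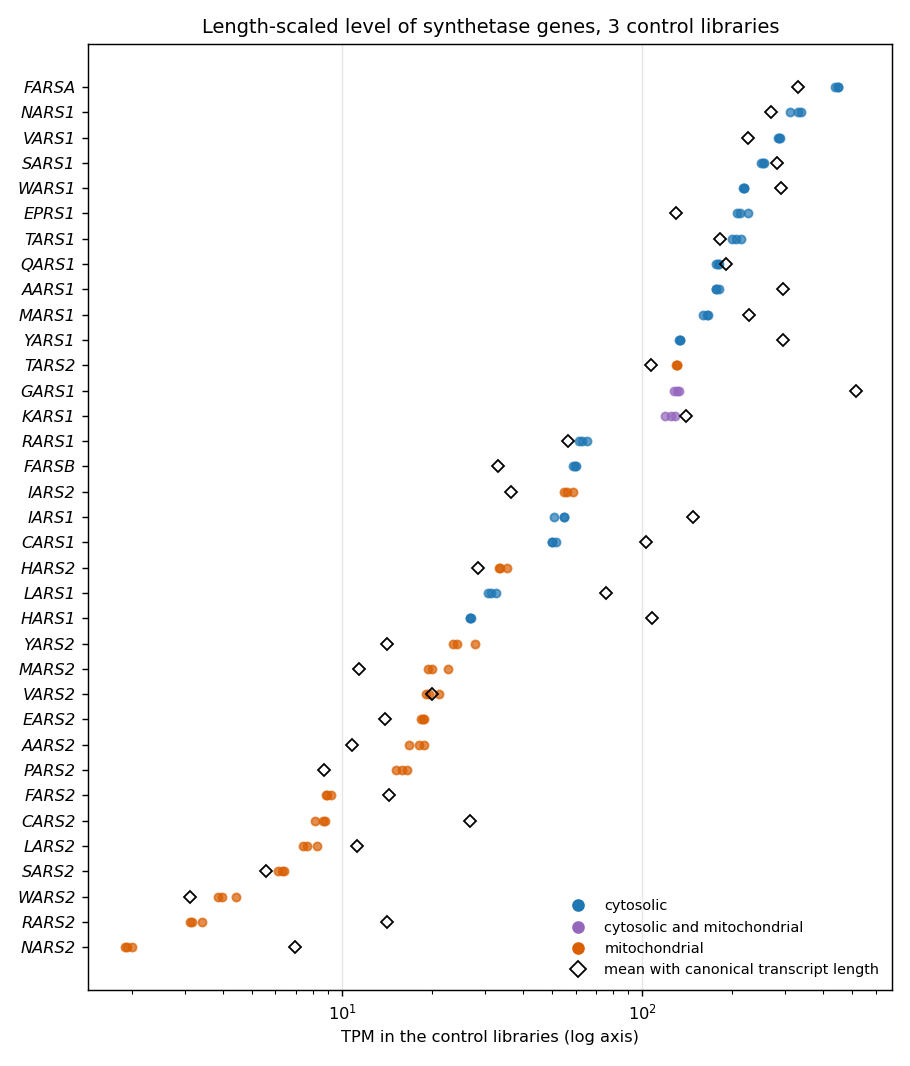
Level of each synthetase gene in the 3 control libraries, as TPM on a log axis. Filled points are single libraries scaled by all annotated exons, coloured by compartment, and open diamonds are control means scaled by the Ensembl canonical transcript; FARSA was highest (446 TPM) and NARS2 lowest (1.93 TPM) by all exons, and GARS1 was highest (516 TPM) by the canonical transcript.

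Cytosolic and mitochondrial genes for the same amino acid were compared within each control library, in 15 pairs over 14 amino acids, since FARS2 was set against both FARSA and FARSB. EARS2 and PARS2, whose cytosolic counterpart is the fused EPRS1, were not paired. The cytosolic gene was higher per length in 13 of them. The ratio was 169 for NARS1 over NARS2 (157 to 176 over the 3 controls), 53.6 for WARS1 over WARS2, 49.6 for FARSA over FARS2, 40.2 for SARS1 over SARS2 and only 1.58 for TARS1 over TARS2. HARS1 over HARS2 (0.785) and IARS1 over IARS2 (0.947) went the other way. These ratios depend on the exon length used. With the length of the canonical transcript in place of all exons, the cytosolic gene was higher in all 15 pairs, HARS1 over HARS2 was 3.79, IARS1 over IARS2 was 4.04, NARS1 over NARS2 was 38.4 and TARS1 over TARS2 was 1.71. GARS1 was then first at 516 TPM and WARS2 last at 3.11, and the medians were 190 TPM for cytosolic and 14 TPM for mitochondrial genes.

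The next comparison asked which synthetase mRNAs lost or gained counts when the RNA was incubated with IRE1. No synthetase gene was called lower, and 4 of 35 rose: SARS1, TARS1, GARS1 and YARS1 (edgeR's quasi-likelihood test, Benjamini-Hochberg adjustment over all tested genes, threshold 0.05). Among all tested genes 12.4% were called lower and 10.3% higher, so the share of synthetases that rose was near the background. At an unadjusted p under 0.05 the synthetases counted 2 lower and 9 higher, and 18.2% and 16.7% of all tested genes did so. DESeq2 called 0 lower and 4 higher, and limma on the authors' CPM called 1 lower (WARS1) and 4 higher. All 35 log2 fold changes (IRE1-treated against control) lay between -0.19 and 0.26, and 72.8% of all tested genes lay within 0.26 of 0 in either direction. So did 79.7% of the 10016 tested genes within the synthetases' range of mean normalized counts. The median of the 35 was 0.05 beside 0.00 for all tested genes, with 12 negative and 23 positive values. The libraries of the 2 groups did not overlap for 4 genes that were lower and 14 that were higher, against 20% and 19.1% of all tested genes. An exact permutation test of 3 against 3 libraries cannot give a p below 0.1 for any single gene. The direction of these small values depended on the scaling. Scaled by library size only, the median of all genes was -0.07, the synthetases had 21 negative and 14 positive values, AARS2, EARS2 and WARS1 were called lower and only SARS1 higher (0.16, adjusted p = 0.0187). As a share of the raw counts on genes, the 35 synthetases took 0.659, 0.655 and 0.653% in the controls and 0.631, 0.644 and 0.650% in the treated libraries, lower in every treated library than in any control. In TMM-scaled CPM their sum was 6363 to 6426 in the controls and 6537 to 6668 in the treated libraries, while the same sum over all tested genes ran from 970899 to 976624 in the controls and from 1004161 to 1056050 in the treated libraries.

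**Figure D2:**
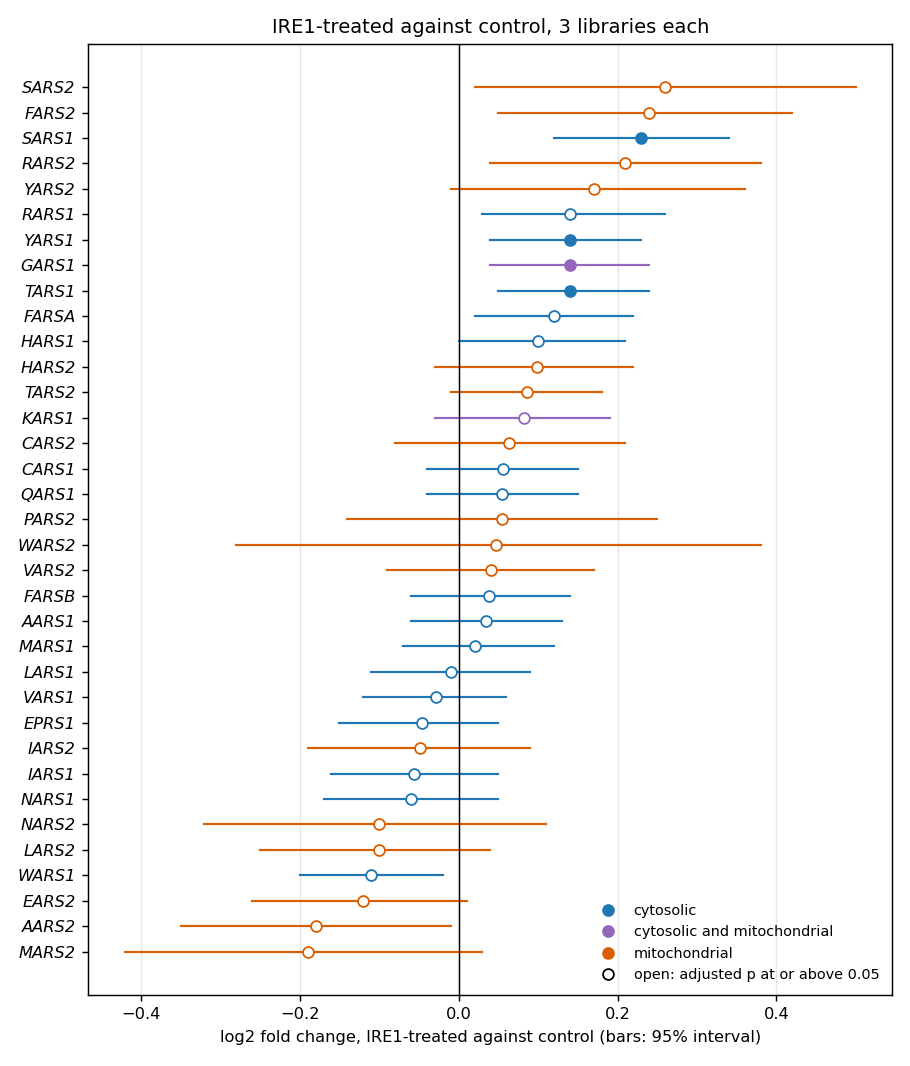
Log2 fold change of each synthetase gene, IRE1-treated against control, with its 95% interval from edgeR (3 libraries in each group), coloured by compartment. Filled points mark the 4 genes with an adjusted p under 0.05 (SARS1, GARS1, TARS1 and YARS1), and all estimates lie between -0.19 and 0.26.

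SARS1 (ENSG00000031698, chr1:109756540-109780804, plus strand), which charges tRNA with serine and also supplies the seryl-tRNA from which selenocysteine is made, had the lowest adjusted p of the 35. Its normalized counts were 6437, 6385 and 6413 in controls 1 to 3, a mean of 6412 ± 26.1 (SD, n = 3), and 8112, 7452 and 7076 in the treated libraries. Every treated library was above every control, with treated replicate 1 highest. The log2 fold change was 0.23 (SE 0.0518, 95% interval 0.12 to 0.34, adjusted p = 0.00469, edgeR). Without treated replicate 1 it was 0.18 (adjusted p = 0.00120), and SARS1 stayed past the threshold with any 1 of the 6 libraries left out. With the trend of length and GC content removed it was 0.11 (adjusted p = 0.0936), and with the same trend taken from canonical transcripts 0.13 (adjusted p = 0.0491).

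The other 3 genes moved less and their calls depended on single libraries. GARS1 (ENSG00000106105, chr7:30620149-30673649, plus strand), the glycyl-tRNA synthetase of both compartments, had 14956, 15174 and 14891 normalized counts in the controls and 17464, 16162 and 16064 in the treated libraries. The groups did not overlap, and the log2 fold change was 0.14 (SE 0.0466, adjusted p = 0.0381, edgeR). GARS1 lost its call without control 1, 2 or 3 (adjusted p = 0.134, 0.126 and 0.126, edgeR) or treated replicate 2 (0.0702). YARS1 (ENSG00000134684, chr1:33240838-33283632, minus strand), for tyrosine, had 8641, 8536 and 8734 against 9888, 9324 and 9319, again with treated replicate 1 highest. Its log2 fold change was also 0.14 (SE 0.0452, adjusted p = 0.0369). YARS1 lost its call without control 1, 2 or 3 (adjusted p = 0.124, 0.168 and 0.0913) or treated replicate 2 (0.0719). TARS1 (ENSG00000113407, chr5:33440802-33468196, plus strand), for threonine, had 5972, 5767 and 5658 against 6446, 6243 and 6542. Here treated replicate 3 was highest and the groups were apart by a small margin (0.14, SE 0.0457, adjusted p = 0.0329). TARS1 lost its call without control 1, 2 or 3 (adjusted p = 0.0675, 0.142 and 0.138) or treated replicate 2 (0.0563). SARS1 and TARS1 share no exon with another gene in the annotation. GARS1 shares exons with GARS1-DT and YARS1 with S100PBP, both on the opposite strand, and GARS1 has a pseudogene, GARS1P1. The libraries were made with a stranded kit, but the strand setting of the counting is not given in the sources used here.

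**Figure D3:**
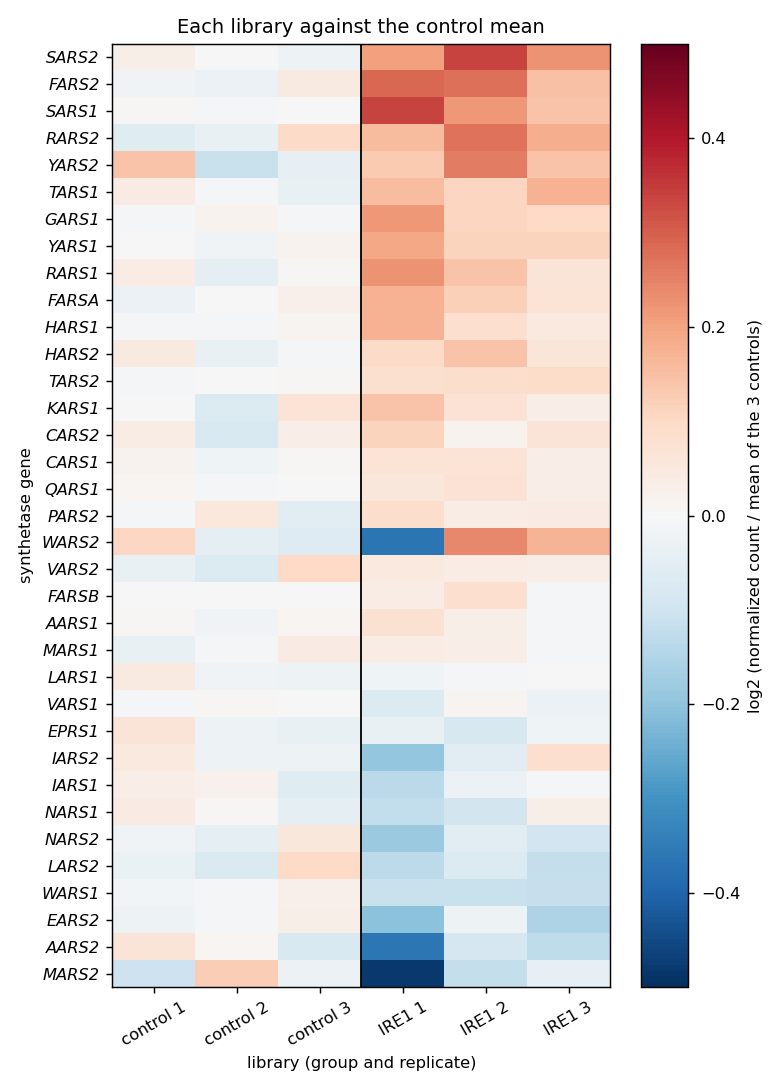
Log2 ratio of the normalized count to the mean of the 3 controls for each synthetase gene (rows, in order of the fold change) in each library (columns). Red is above and blue below the control mean; IRE1-treated replicate 1 was the farthest treated library from the control mean for 24 of the 35 genes.

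Among the cytosolic synthetases as a whole, 3 of 17 rose and none of 17 was called lower, beside 10.3% and 12.4% of all tested genes. The median log2 fold change of the 17 was 0.04, with values from -0.11 to 0.23. The 7 genes of the multi-tRNA synthetase complex lay close to 0. None of the 7 was called in either direction, beside 22.7% of all tested genes. The log2 fold changes of the 7 were -0.06 for IARS1, -0.05 for EPRS1, -0.01 for LARS1, 0.02 for MARS1, 0.05 for QARS1, 0.08 for KARS1 and 0.14 for RARS1. In 6 of the 7 the value was within 0.1 of 0 in either direction, and 33.1% of all tested genes were. Of the tested genes within the synthetases' range of mean normalized counts, 37.1% were. RARS1, with 1468, 1388 and 1438 normalized counts in the controls and 1673, 1580 and 1498 in the treated libraries, did not overlap between the groups (adjusted p = 0.0727, edgeR), and passed without treated replicate 3 (0.0154). With the length and GC trend removed RARS1 was at 0.06 (adjusted p = 0.529). MARS1 shares exons with DDIT3 and ARHGAP9, and KARS1 with TERF2IP, all on the opposite strand.

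The subunits of the cytosolic phenylalanyl-tRNA synthetase can be set side by side. FARSA had 7030, 7193 and 7305 normalized counts in the controls and 8090, 7790 and 7523 in the treated libraries, a log2 fold change of 0.12 (SE 0.0462, adjusted p = 0.0719, edgeR). All treated libraries lay above the controls, and FARSA passed without treated replicate 3 (adjusted p = 0.0220). With the length and GC trend removed it was at 0.016 (adjusted p = 0.840), and with the canonical trend at 0.018 (adjusted p = 0.822). FARSB, with a mean of 2660 ± 5.05 in the controls and 2732 ± 85.9 in the treated libraries (SD, n = 3), was at 0.04 (adjusted p = 0.613) and its groups overlapped. FARSB has the longest canonical transcript of all 35 genes (6761 bases) and FARSA among the shortest (1811 bases).

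WARS1 (ENSG00000140105, chr14:100800127-100843142, minus strand), the interferon-inducible tryptophanyl-tRNA synthetase, was the lowest of the cytosolic genes, and was singled out after its values were seen. It had 9073, 9092 and 9330 normalized counts in the controls and 8485, 8476 and 8458 in the treated libraries. All treated libraries lay below all controls, with a difference of -0.11 on the log2 scale (SE 0.0431, 95% interval -0.20 to -0.02, adjusted p = 0.0703, edgeR). WARS1 was past the threshold in 7 of 16 alternatives, among them the removal of the length and GC trend (-0.16, adjusted p = 0.0105) and leaving out treated replicate 1 (-0.11, adjusted p = 0.0351), and was negative in all 16. The remaining cytosolic genes were AARS1 (0.03), CARS1 (0.06), HARS1 (0.10), NARS1 (-0.06) and VARS1 (-0.03), none of which passed the test.

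None of the 16 mitochondrial synthetases passed the test in either direction, beside 22.7% of all tested genes. The log2 fold changes of the mitochondrial genes ran from -0.19 for MARS2 to 0.26 for SARS2, with 6 negative and 10 positive and a median of 0.05. Their counts were lower, and the median SE was 0.0799 against 0.0457 for the cytosolic genes. MARS2, for methionine, had 384, 449 and 404 normalized counts in the controls and 295, 380 and 401 in the treated libraries, also chosen after its values were seen. The groups overlapped and treated replicate 1 lay far below the rest (-0.19, SE 0.106, 95% interval -0.42 to 0.03, adjusted p = 0.210, edgeR), and without that library the value was -0.07. AARS2 (-0.18), EARS2 (-0.12) and NARS2 (-0.10) did not overlap between the groups on the lower side, with adjusted p of 0.115, 0.179 and 0.497 (edgeR). These were 3 of the 16 genes, beside 20% of all tested genes. Without treated replicate 1, AARS2 was at -0.10 (adjusted p = 0.350) and EARS2 at -0.09 (adjusted p = 0.386). NARS2, the synthetase with the lowest level, had 207, 203 and 218 against 184, 202 and 196.

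At the upper end were SARS2 (0.26, SE 0.113, 95% interval 0.02 to 0.50), FARS2 (0.24), RARS2 (0.21) and YARS2 (0.17). SARS2, the mitochondrial counterpart of SARS1, had 131, 128 and 126 normalized counts in the controls and 148, 162 and 150 in the treated libraries (adjusted p = 0.115, edgeR). FARS2, the single-chain enzyme for phenylalanine, had 284, 282 and 297 against 351, 348 and 318 (adjusted p = 0.0603), and passed without treated replicate 3 (0.0281). RARS2, for arginine, had 361, 367 and 402 against 420, 455 and 427 (adjusted p = 0.0736), and passed without treated replicate 1 (0.0467). In these 3 genes all treated libraries were above the controls, while those of YARS2 overlapped (adjusted p = 0.177). TARS2, the most abundant mitochondrial member, had 3459, 3465 and 3484 against 3664, 3686 and 3701, a narrow but complete separation (0.09, adjusted p = 0.179). Counting HARS2, 5 of the 16 mitochondrial genes did not overlap on the higher side, beside 19.1% of all tested genes. The other mitochondrial genes were LARS2 (-0.10), IARS2 (-0.05), VARS2 (0.04), PARS2 (0.05), WARS2 (0.05), CARS2 (0.06) and HARS2 (0.10). Without treated replicate 1, IARS2 was at 0.02 and WARS2 at 0.20. WARS2 had the fewest counts and the widest interval of all (-0.28 to 0.38).

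HARS1 and HARS2, the cytosolic and mitochondrial synthetases for histidine, lie head to head on chromosome 5 and overlap at their 5′ ends (HARS1 chr5:140052620-140071122, minus strand, and HARS2 chr5:140071015-140078890, plus strand). HARS1 had 2489, 2498 and 2531 normalized counts in the controls and 2830, 2659 and 2591 in the treated libraries (0.10, SE 0.0494, adjusted p = 0.149, edgeR). HARS2 had 865, 817 and 834 against 897, 925 and 874 (0.10, SE 0.0591, adjusted p = 0.255). In both genes every treated library was above every control, as in 19.1% of all tested genes, and neither passed the test. HARS1 also shares exons with DND1 and HARS2 with ZMAT2 on their own strands. Reads that match more than 1 gene can be set aside as ambiguous, and the ambiguous line held 3.93 to 4.24% of the counts in a file. Whether this lowered the counts of HARS1 and HARS2 was not tested.

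For the 31 genes without a call, the 95% intervals cover the spread between libraries in this fit and scaling only. With the length and GC trend removed, LARS1 was at 0.24, outside its interval of -0.11 to 0.09. IARS1 was then at 0.15, outside its interval of -0.16 to 0.05. The lowest bound was that of MARS2 at -0.42, which is 74.7% of the control level, and the highest that of SARS2 at 0.50. In 24 of the 35 genes the whole 95% interval lay within 0.26 of 0 on the log2 scale. By structural class, 1 of 18 class I genes and 3 of 16 class II genes rose, and no gene of either class was called lower, beside 10.3% of all tested genes called higher and 12.4% lower. EPRS1 has a catalytic domain of each class and is in neither count. The median log2 fold change was 0.03 in class I and 0.09 in class II, and this difference was not tested.

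Of the 14 partner genes of tRNA charging described here, 3 rose and none was called lower, beside 10.3% and 12.4% of all tested genes. AIMP1, a scaffold of the complex whose fragment acts as a cytokine, had 866, 800 and 780 normalized counts in the controls and 1090, 947 and 937 in the treated libraries (0.28, SE 0.0702, adjusted p = 0.0103, edgeR). AIMP1 missed the threshold without control 2 or 3 (adjusted p = 0.0563 and 0.0545). The other scaffolds overlapped between the groups: AIMP2 had 463, 419 and 533 against 540, 490 and 479 (0.09, adjusted p = 0.508), and EEF1E1, which shares exons with a read-through gene, had 221, 235 and 164 against 213, 198 and 267 (0.13, adjusted p = 0.556). PTRH2, a peptidyl-tRNA hydrolase, had 762, 738 and 689 against 1133, 889 and 796 (0.36, adjusted p = 0.0167). Treated replicate 1 was far above the others, and without it the value was 0.21 (adjusted p = 0.0299). PTRH2 missed the threshold without control 2 or 3 (adjusted p = 0.0546 and 0.0774) and with the canonical length and GC trend removed (0.203). DTD1, a D-aminoacyl-tRNA deacylase that clears mischarged tRNAs, had 514, 527 and 510 against 642, 604 and 568 (0.22, adjusted p = 0.0329). DTD1 kept its call without treated replicate 3 (adjusted p = 0.00891) and lost it without control 1, 2 or 3 (0.112, 0.0881 and 0.0973) or treated replicate 1 or 2 (0.0753 and 0.0900). None of QRSL1, GATB, GATC and MTFMT (amidation and formylation of mitochondrial tRNA), PSTK and SEPSECS (selenocysteine), DTD2 and AARSD1 (editing), and TRNT1 (addition of the CCA end) passed the test. Their estimates ran from -0.27 for SEPSECS to 0.20 for PSTK.

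The fold changes of the synthetase genes tended to fall with transcript length. Across the 35 genes, Spearman's rho between the log2 fold change and the length of the canonical transcript was -0.77, and it was -0.68 over the 19 cytosolic and dual genes and -0.82 over the 16 mitochondrial genes. Across 14026 tested genes it was -0.58. Genes are not independent replicates and share the same 6 libraries, so these are descriptions. With GC content of the transcript rho was 0.13 over the 35 genes and 0.22 over all. The canonical transcripts of the synthetases ran from 1679 bases (FARS2) to 6761 bases (FARSB). Split at 2160 and 4200 bases, the short, middle and long tested genes had medians of 0.15, 0.01 and -0.17, and the synthetases in the same ranges had 0.14 (9 genes), 0.05 (19 genes) and -0.06 (7 genes). Among the short genes 23.8% of all genes were called higher and 0.876% lower, and among the long ones 2.01% and 31.8%. SARS1 has 1914 bases and SARS2 1924, and both lay at the upper end of the fold changes. AARS2 with 4798 bases and EARS2 with 5196 lay at the lower end, and FARSB with 6761 bases had a value of 0.04, beside the median of -0.17 over the long genes. Low values were also found in the middle range: MARS2, the lowest of all (-0.19), has 3027 bases, WARS1 (-0.11) 2639 and NARS2 (-0.10) 2512.

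**Figure D4:**
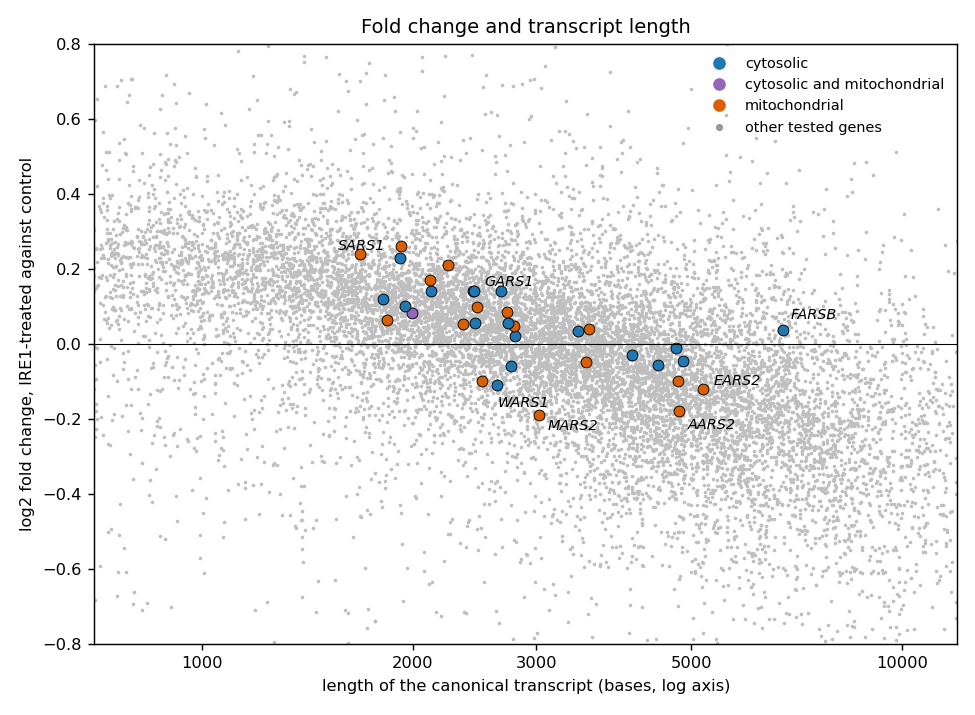
Log2 fold change, IRE1-treated against control, plotted against the length of the canonical transcript in bases (log axis). Grey points are other tested genes, of which 1165 of 14026 fall outside the axes, and coloured points are the synthetase genes; the fold change falls with length in both (Spearman's rho -0.77 over the 35 synthetases and -0.58 over all).

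When a loess trend with length and GC content was removed from each library, the calls among the synthetases were others. With the longest transcript of each gene, WARS1 was lower and 8 genes were higher (AARS1, CARS1, FARSB, GARS1, HARS1, IARS1, LARS1 and RARS2), of which only GARS1 was among the 4 first named. With the canonical transcript, WARS1 was lower and FARSB, SARS1 and TARS1 were higher. WARS1 at -0.15 (adjusted p = 0.0113, edgeR) and FARSB at 0.27 (adjusted p = 0.00457) were the synthetases called with both lengths. Which transcript of each gene was present in these cells was not measured.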

How the data were processed

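RNA-seq of poly(A)-containing RNA from 3 control and 3 IRE1-treated samples of H929 total RNA was analysed. Reads were trimmed by the authors (Cutadapt 1.12), mapped with STAR 2.5.3a on GRCh37 and the Ensembl 87 annotation, and assigned to genes with HTSeq 0.6.1p1 (versions per the submitters' processing notes). They deposited raw gene counts for each library. The 5 lines per file that belong to no gene (21.4 to 23.2% of the counts in a file) were not used. A second deposited table holds CPM normalized by the authors and served 1 alternative only.

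Counts were tested with edgeR 4.0.16 in R 4.3.3 (filterByExpr, which kept 14398 of 24945 genes with a count, TMM factors of 0.947 to 1.03, quasi-likelihood test, Benjamini-Hochberg adjustment, threshold 0.05) without covariates. The study's own test compared exons, whose counts were not used here. Normalized counts were scaled by library size and TMM factor to a library of average size. Alternatives used DESeq2 1.42.0, limma 3.58.1 with a pseudocount of 1, other scalings and filters, a replicate block, loess trends (span 0.5) with length and GC content, and leaving out single libraries. The trend with canonical transcripts was added after seeing the data. In data simulated from these 14398 genes, 67 of 100 genes changed 1.5-fold and 84 of 100 changed 2-fold were recovered for this comparison. P-values rest on the spread between libraries within each group, with 6 libraries in all. The submitters call these samples of 1 cell line biological replicates. The sources used here do not say whether the RNA came from separate cultures. Whether the spread covers differences between cultures, or only those of the reaction and the library, is therefore not known. No library was a copy of another (chi-square per gene of 2.21 to 29.2 between libraries).

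GENCODE release 44 (GRCh37) gave the gene names, lengths and sequences and matched 55538 of the 57905 identifiers. Motif sites were folded with ViennaRNA 2.7.2, with Python 3.11.15 and scipy 1.17.1 for the remaining steps. All 35 synthetases are named. Values in every library are given for members past the threshold, for the highest and lowest levels among cytosolic and mitochondrial genes, for the overlapping pair HARS1 and HARS2, for complex scaffolds and for called partners. Per-library values of other members (WARS1, MARS2, RARS1, SARS2, FARS2 and RARS2) were chosen after their values were seen. The members and all gene lists were chosen with earlier results of these data known. A partner gene of the list is not reported here, and only some of the hairpin sites found are printed.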

Additional observations from a re-analysis of the deposited data

How the results depend on the processing

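Over 16 alternatives, the 35 synthetases, 5 partner genes and 3 check genes were refitted, and 572 values kept both direction and side of the threshold, 27 passed newly, 44 fell short and 45 turned direction, and SARS1 passed in 14. With library size only, 683 genes were higher, 3 synthetases (AARS2, EARS2 and WARS1) were lower and 1 was higher, the median of all genes was -0.07 and that of the synthetases turned to -0.0211, and AARS1 (-0.042), CARS1 (-0.020), CARS2 (-0.011), FARSB (-0.038), MARS1 (-0.055), PARS2 (-0.021), QARS1 (-0.021), VARS2 (-0.034) and WARS2 (-0.026) turned negative, so directions here are relative to that shift. With the length and GC trend removed, 779 genes and 1 synthetase were lower, 8 synthetases were higher, EPRS1 (0.061), IARS1 (0.15), LARS1 (0.24), LARS2 (0.10) and NARS2 (0.026) turned positive, and PARS2 (-0.037), QARS1 (-0.031), AIMP2 (-0.073) and EEF1E1 (-0.021) negative. With the replicate block added to that trend, 669 genes and 1 synthetase were lower, 6 synthetases were higher, and EPRS1 (0.061), IARS1 (0.15), LARS1 (0.24), LARS2 (0.10), NARS2 (0.023), PARS2 (-0.037), QARS1 (-0.031), AIMP2 (-0.071) and EEF1E1 (-0.020) turned. With the canonical trend, 586 genes were lower and 946 higher, 1 synthetase was lower, EARS2 (0.0035), EPRS1 (0.098), IARS1 (0.060), LARS1 (0.13) and VARS1 (0.019) turned positive, and CARS2 (-0.043), KARS1 (-0.0063), MARS1 (-0.0091), PARS2 (-0.0095), QARS1 (-0.0020), AIMP2 (-0.063) and EEF1E1 (-0.023) negative. Without a filter 2 synthetases were higher, and when a mean of 100 normalized counts was required, as with limma on log2(CPM + 1), 1 was lower (WARS1). The replicate block alone left 1 synthetase higher (SARS1). Same-numbered libraries deviated from their group means with correlations of -0.0358, -0.00505 and -0.112, so no pairing by number was seen. With 3 libraries in each group these values cannot exclude a pairing. Leaving out 1 library gave 972 to 2221 genes lower, 638 to 2091 higher, 0 to 1 synthetases lower and 1 to 7 higher, and ranges of -0.12 to 0.019 for IARS2, -0.023 to 0.012 for LARS1, -0.060 to 0.20 for WARS2 and -0.0094 to 0.23 for EEF1E1. The median control level of 53.6 TPM was 50.1 with the longest and 75.9 with the canonical transcript. The share of synthetases with a CNGCAG hairpin (60%) was 8.57% for loops of 7 bases and 100% without regard to folding. The causes of these changes were not tested beyond what each alternative sets. The median SE of the synthetases was 0.0512, and a fold change of a gene count does not measure a cut.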
